A study of Rattus norvegicus with 12 samples.

Results

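The genes described here are 38 genes of glycolysis and of the response to low oxygen, measured in endothelial cells (ECs) of the rat ductus arteriosus (DA) and aorta. They are a fixed list of symbols: 2 glucose transporters, 6 enzymes of the first steps of glycolysis, 2 regulators of phosphofructokinase, 9 enzymes of lower glycolysis, 6 genes of lactate and pyruvate handling, 6 genes of oxygen sensing and 7 targets of the hypoxia response. Each symbol was matched to the probe sets that carried it as their single gene name, and the probe set with the highest mean over the 12 arrays stood for the gene. All 38 were found among the 14503 genes named on the array, and all 38 were among the 11221 genes with a probe set in the tests.

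Glycolysis breaks glucose down to pyruvate in the cytosol. Pyruvate is either reduced to lactate, which leaves the cell through monocarboxylate transporters, or enters the mitochondrion for oxidation, a step that the pyruvate dehydrogenase kinases hold back. ECs are known to draw much of their energy from glycolysis. When oxygen is low, prolyl hydroxylases no longer mark the hypoxia-inducible factors for destruction by the von Hippel-Lindau protein, and the stabilised factors switch on glucose transporters, most glycolytic enzymes and other targets.

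The DA is the fetal artery that joins the pulmonary artery to the aorta and closes after birth. Vessels were collected from Wistar rats by cesarean section at term, on day 21 of gestation, either before breathing (F group) or from neonates 30 minutes after delivery (N group). ECs carrying CD31 but not CD45 were sorted from enzymatically dispersed vessels, and their RNA was hybridized to Rat Gene 1.0 ST arrays. Each of the 4 groups, the DA and the aorta in F and N, had 3 arrays, 12 in all. The labels name no transgene and no drug. Every array held RNA accumulated over repeated sorts of tissue pooled from many litters, so a replicate is a pool and not an animal. The comparisons asked how the vessels differed at each stage and how each vessel differed between F and N.

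All values are log2 signals. The endothelial marker Cdh5 had group means of 11.05 to 11.14 and Pecam1, which encodes CD31, of up to 12.17, whereas the leukocyte marker Ptprc, which encodes CD45, lay between 3.27 and 3.68, under the mean of the low control spike lys (4.44) that set the lower limit for testing. The summed signal of 10 smooth muscle markers was 11.72 to 11.79 on the DA arrays and 11.20 to 11.42 on the aorta arrays of the F group, and 11.76 to 12.11 against 11.30 to 11.45 in the N group, higher on every DA array. Sums here were taken of unlogged signals, so the brightest genes weighed most, for smooth muscle Acta2 (group means 10.42 to 11.08). With F and N together 4 of those 10 markers were higher in the DA in limma (adjusted p under 0.05) and 2 lower (Mylk and Myocd). All 10 had a mean above the lower limit. Of 13 endothelial markers, 1 was lower in the DA (Cldn5), and of 8 fibroblast markers 1 was higher and 2 were lower. Among the fibroblast markers Col1a1, Col1a2 and Postn had group means of 10.89 to 11.49, near those of Cdh5, whereas Pdgfra and Dpt read 4.98 to 5.58. The summed fibroblast signal was 12.90 to 13.16 on the DA arrays and 13.08 to 13.26 on the aorta arrays in F. In N it was 13.08 to 13.26 against 13.10 to 13.275. Of 3 mesothelial and 5 erythroid markers 1 each was higher (Msln and Epb42), and of 6 cardiomyocyte markers 1 was lower (Tnnt2). A set of 12 genes of the stress of cell dispersion summed to less on every DA array, 14.86 to 15.11 against 15.20 to 15.45 in F and 14.96 to 15.10 against 15.20 to 15.33 in N, with 4 of the 12 called lower. The part of any of these in the differences of the 38 genes was not tested. As each array measured a mixture of sorted cells, fewer cells that express a gene and less RNA per cell cannot be told apart.

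The DA and the aorta differed in 6 of the 38 genes when F and N were combined. Aldoc, Slc16a1, Slc2a1 and Car9 were higher in ECs of the DA, and Pdk4 and Slc2a3 were lower. Aldoc and Pdk4 also differed within each stage. The remaining 32 genes did not pass the test, among them all 6 of the oxygen sensing machinery. Of all probe sets tested 8.12% passed with F and N combined, so none of 6 is near that share. A gene was called where the limma adjusted p, after Benjamini-Hochberg adjustment over 18690 probe sets, was under 0.05. Over both stages 4 of 38 were called higher in the DA, against 3.19% of all probe sets tested, and 2 of 38 lower, against 4.93%. The 38 were chosen with earlier results of these data known. In the F group 1 of 38 was called higher (1.49% of all) and 1 lower (2.28%), and in the N group 1 higher (1.26%) and 1 lower (1.87%). The median log2 difference of the 38 between DA and aorta was 0.11 in F and 0.13 in N, against 0.00 over all probe sets tested, and 23 of 38 lay above 0 in F and 25 in N.

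Samples with the same replicate number deviated together, clearly for numbers 1 and 3 and weakly for number 2. A fit with the replicate number as a block called more. With the block 10 of 38 genes were higher in the DA over both stages (7.71% of all probe sets) and 3 were lower (10.1%). The added genes were Pkm, Pdk1, Eno2, Eno1, Ldha and Pfkfb4 on the higher side and Adm on the lower side. In the F group the block gave 4 higher (3.94%) and 2 lower (6.5%), and in the N group 3 higher (2.99%) and 1 lower (4.28%). Taken pair by pair, DA against aorta within a replicate number and stage, 11 of 38 genes (28.9%) were higher in the DA in 6 of 6 pairs and 6 (15.8%) were lower in 6 of 6, against 10.0% and 12.8% of all probe sets.

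**Figure D1:**
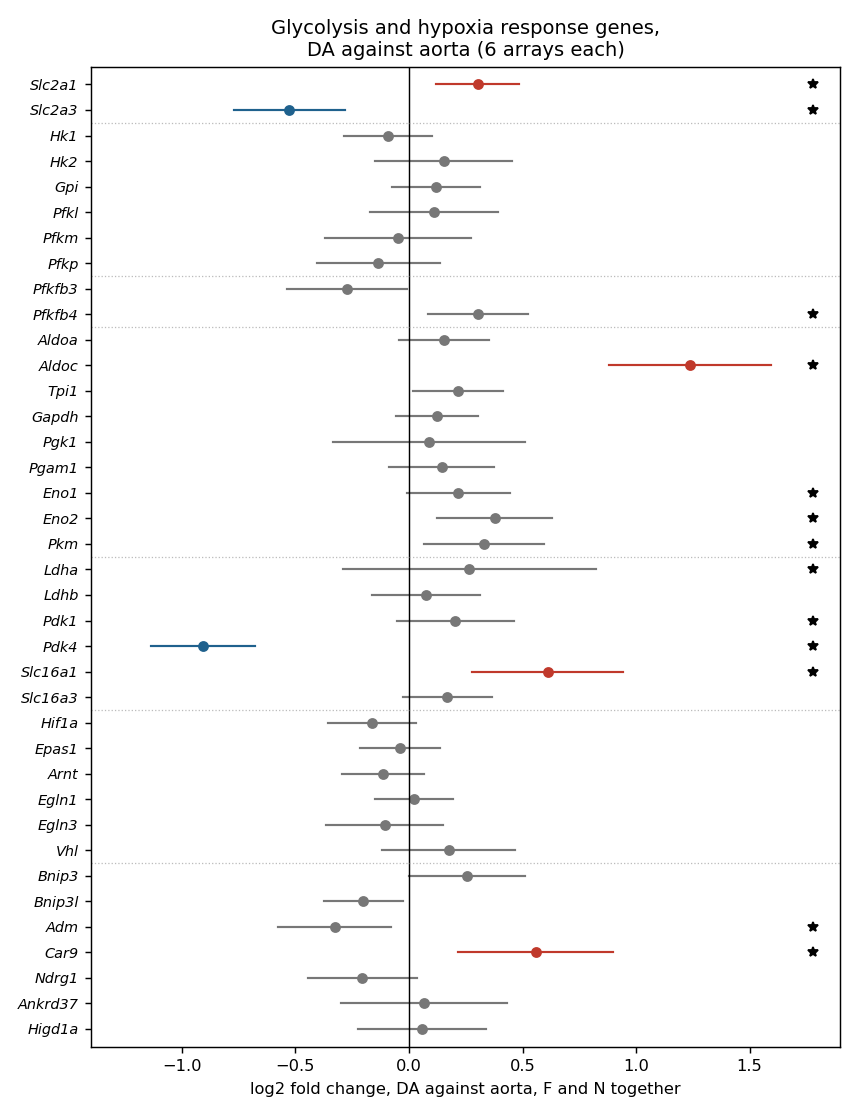
Log2 fold change of the 38 genes in ECs of the DA against the aorta with F and N together (x axis), 1 gene a row, with points for the estimate and lines for its 95% confidence interval from limma on 12 arrays. Red genes (4) were called higher and blue genes (2) lower at an adjusted p under 0.05, grey genes were not called, stars mark the 13 genes called with the replicate block, and dotted lines part the roles.

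The stretch just before the transcription start is where the hypoxia-inducible factors often bind, at a core read ACGTG or GCGTG. The promoters of the 5 called genes with an entry in the promoter table are shown for the letters they hold, as RefSeq sequence of build GRCr8. Each gives the 250 bases before the start, 5′ to 3′ in the direction of the gene, in lower case with every ACGTG or GCGTG, on either strand, in capitals.
Aldoc (chr10:63715294-63715543, plus strand): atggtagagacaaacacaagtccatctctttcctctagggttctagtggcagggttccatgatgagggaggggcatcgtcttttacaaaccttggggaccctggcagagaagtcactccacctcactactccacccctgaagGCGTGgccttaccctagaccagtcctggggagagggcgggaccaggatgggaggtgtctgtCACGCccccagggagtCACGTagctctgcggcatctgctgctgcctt
Slc16a1 (chr2:194812410-194812659, plus strand): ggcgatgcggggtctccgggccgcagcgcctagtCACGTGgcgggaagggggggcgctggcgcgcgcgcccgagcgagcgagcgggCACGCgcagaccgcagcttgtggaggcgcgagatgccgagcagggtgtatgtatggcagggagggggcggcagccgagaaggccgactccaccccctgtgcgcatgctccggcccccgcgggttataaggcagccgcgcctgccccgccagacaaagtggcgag
Slc2a1 (chr5:138002272-138002521, plus strand): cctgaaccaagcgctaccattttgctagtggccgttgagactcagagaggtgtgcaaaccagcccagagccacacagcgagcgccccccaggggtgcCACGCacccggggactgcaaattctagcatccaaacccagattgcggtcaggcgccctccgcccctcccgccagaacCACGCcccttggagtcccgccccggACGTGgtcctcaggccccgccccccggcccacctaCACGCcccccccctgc
Car9 (chr5:62558774-62559023, plus strand): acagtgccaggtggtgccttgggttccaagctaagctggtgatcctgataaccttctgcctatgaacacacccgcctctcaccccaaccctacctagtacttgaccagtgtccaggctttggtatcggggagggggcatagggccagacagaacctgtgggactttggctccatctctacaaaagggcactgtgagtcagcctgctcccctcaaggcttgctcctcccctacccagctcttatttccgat
Pdk4 (chr4:34568330-34568579, minus strand): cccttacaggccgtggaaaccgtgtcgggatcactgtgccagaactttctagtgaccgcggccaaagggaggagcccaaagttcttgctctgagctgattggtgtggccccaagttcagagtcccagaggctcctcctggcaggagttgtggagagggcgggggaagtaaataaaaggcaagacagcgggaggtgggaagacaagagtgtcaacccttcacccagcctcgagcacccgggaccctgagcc
Aldoc held 3 such cores, 108, 47 and 31 bases before the start, and Slc2a1 held 4. Slc16a1 held 3, of which a pair overlaps in CACGTG, which reads the same on both strands and so counts once for each. Pdk4 and Car9 held none in this stretch, and bases further upstream or after the start were not read. Of the 34 genes with an entry, 22 (64.7%) held a core, against 39.6% of the 27457 genes in the table and 36.7% of its 33469 promoters of that length. The genes of the table were not matched to the 34 for base composition or signal, so the difference in shares cannot be read as enrichment. Slc2a3, Pgk1, Bnip3l and Ndrg1 had no entry. A match of 5 letters is a description of the sequence, not a binding site.

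The glucose transporters went opposite ways. Slc2a1, the widespread basal transporter, was higher in ECs of the DA and Slc2a3, a transporter of high affinity, was lower. On replicates 1, 2 and 3 the log2 signal of Slc2a1 was 9.30, 9.40 and 9.50 in the DA and 8.92, 9.12 and 9.15 in the aorta of the F group, and 9.22, 9.47 and 9.27 against 9.05, 9.13 and 8.97 in the N group. All 6 DA arrays lay above all 6 aorta arrays. Slc2a3 read 5.73, 5.76 and 6.16 in the DA against 6.45, 6.59 and 6.40 in the aorta in F, and 6.23, 6.25 and 5.95 against 6.57, 6.85 and 6.39 in N. Here all DA arrays lay below all aorta arrays.

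Over both stages Slc2a1 was 1.23-fold higher (log2 0.30 ± 0.08, SE, n = 6 arrays a vessel, limma adjusted p = 0.0449). That call was narrow: it ended without any 1 of the 11 arrays other than DA N replicate 1, with a limma adjusted p of up to 0.133, and also after subtraction of the array medians (0.0531), without the filter on low values (0.0814) and with array weights (0.0663). With the replicate block the limma adjusted p was 0.00846. Slc2a3 was 1.44-fold lower (log2 −0.53 ± 0.11, limma adjusted p = 0.0105), and this call was kept in all 12 fits that left out 1 array. Within the F group Slc2a3 differed by −0.60 (limma adjusted p = 0.0640), which became 0.0311 without DA F replicate 3 and 0.0226 with the block. Within N it differed by −0.46 (limma adjusted p = 0.217).

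**Figure D2:**
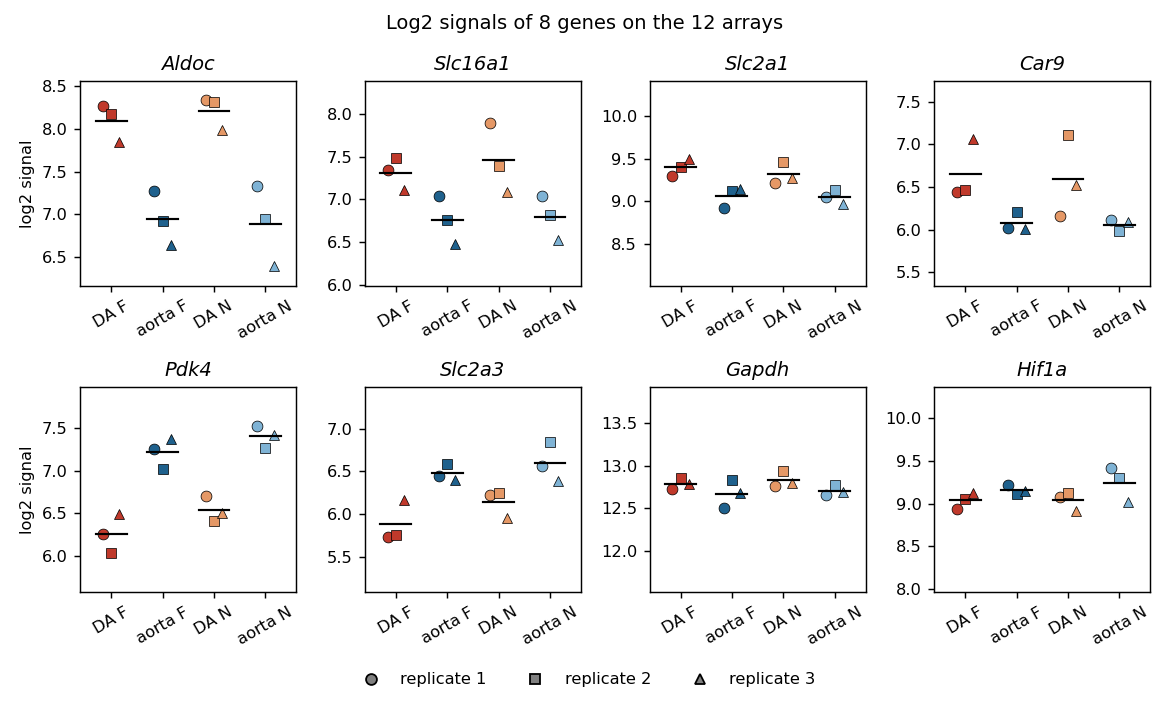
Log2 signal (y axis, all panels spanning the same number of log2 units) on the 12 arrays for the 6 genes called between vessels and for Gapdh and Hif1a, which were not called. Symbols show the replicate number, and black bars the mean of 3 arrays; DA and aorta arrays do not overlap for Aldoc, Slc16a1, Slc2a1, Pdk4 and Slc2a3, while Car9, Gapdh and Hif1a overlap.

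Of the 6 genes that trap glucose as hexose phosphate and commit it to breakdown, none was called between vessels at either stage or over both, with or without the block. Without the block 8.12% of all probe sets were called over both stages, and none of 6 is near that share. Their differences over both stages ran from −0.13 for Pfkp to 0.15 for Hk2, with a median of 0.03. The hexokinases Hk1 (log2 −0.09, 95% confidence interval −0.29 to 0.10) and Hk2 (0.15, −0.15 to 0.46) phosphorylate glucose. Gpi, which turns glucose phosphate into fructose phosphate, differed by 0.12 (−0.08 to 0.31). The phosphofructokinase subunits Pfkl, Pfkm and Pfkp differed by 0.11, −0.05 and −0.13. The intervals leave room for differences of up to 0.46 in size on the log2 scale.

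Pfkfb3 and Pfkfb4 make and remove fructose bisphosphate of the regulatory kind, which drives phosphofructokinase. Pfkfb4 lay between 5.58 and 5.90 on the DA arrays of the F group and between 5.19 and 5.45 on its aorta arrays, with no overlap there, but in the N group the ranges overlapped. Over both stages it differed by 0.30 ± 0.10 (SE, limma adjusted p = 0.101), and was called with the block (limma adjusted p = 0.0165). Pfkfb3 pointed the other way, at −0.27 ± 0.12 (limma adjusted p = 0.256, with the block 0.0775).

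Lower glycolysis held the largest difference among the 38. Aldoc, aldolase C, is 1 of the aldolases that split fructose bisphosphate into triose phosphates. In the F group its log2 signal was 8.27, 8.17 and 7.84 in the DA and 7.27, 6.92 and 6.64 in the aorta on replicates 1, 2 and 3. In the N group it was 8.34, 8.32 and 7.99 against 7.33, 6.95 and 6.39. Every DA array lay above every aorta array, and in both vessels and stages replicate 1 read highest and replicate 3 lowest. Aldoc was 2.22-fold higher in the DA in F (log2 1.15 ± 0.23, SE, n = 3 arrays a group, limma adjusted p = 0.0127), 2.51-fold in N (1.33 ± 0.23, limma adjusted p = 0.00637) and 2.36-fold over both (1.24 ± 0.16, limma adjusted p = 0.000341). The call over both stages and that in N were kept in all 12 fits without 1 array. That in F was lost without aorta F replicate 2 (0.0547) or 3 (0.0672) and without DA F replicate 1 (0.0613) or 2 (0.0582), while the difference there stayed at 0.9998 to 1.14. The methods' t-test with Benjamini-Hochberg adjusted values ended the calls in F (0.162) and in N (0.255) and kept that over both.

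The other 8 genes of lower glycolysis all had differences above 0 at each stage and in their average, but none was called. The median over the 9 was 0.19 in F and 0.21 in N. Aldoa, the aldolase most abundant in muscle, differed by 0.15 ± 0.09 over both stages. Its log2 signal was 11.06 to 11.44 on the DA arrays and 11.03 to 11.245 on the aorta arrays, above that of Aldoc on every array. Tpi1, which interconverts the triose phosphates, lay at 10.11 to 10.56 on the 6 DA arrays and at 9.95 to 10.09 on the 6 aorta arrays, without overlap, yet its difference of 0.21 ± 0.09 did not pass (limma adjusted p = 0.225, with the block 0.0953). Of the 38 genes, 4 lay higher and 2 lower on all 6 DA arrays than on all 6 aorta arrays, against 2.91% and 4.07% of all probe sets.

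Gapdh, the dehydrogenase that is often used as a reference gene, lay at 12.72 to 12.94 in the DA and 12.50 to 12.83 in the aorta, a difference of 0.12 (95% confidence interval −0.06 to 0.30). It has 16 tested probe sets with its name on the array, and all 16 had a difference above 0, from 0.09 to 0.15. Such probe sets may match near-identical copies of the gene, so they are not separate measurements. Pgk1 (0.09 ± 0.19) and Pgam1 (0.14 ± 0.11), the kinase and the mutase of the phosphoglycerates, were not called.

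The enolases and pyruvate kinase were called with the replicate block and not without it. Pkm, which makes pyruvate, lay at 10.35 to 10.78 in the DA and 9.98 to 10.52 in the aorta in F, and at 10.36 to 10.69 against 9.94 to 10.34 in N. Over both stages it differed by 0.33 ± 0.12 (limma adjusted p = 0.150, with the block 0.00327). Eno2 differed by 0.38 ± 0.12 (limma adjusted p = 0.0778, with the block 0.0196), and without DA N replicate 1 it passed (0.00880, difference 0.47). Its signal, 4.86 to 5.90 over the 12 arrays, was close to the lower limit of testing. Eno1 differed by 0.22 ± 0.10 (limma adjusted p = 0.307, with the block 0.0384).

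At the end of the pathway the vessels differed in a kinase and a transporter. Pdk4, a pyruvate dehydrogenase kinase that rises in fasting and limits pyruvate oxidation, read 6.26, 6.03 and 6.49 in the DA and 7.25, 7.02 and 7.37 in the aorta on replicates 1, 2 and 3 of the F group. In the N group it read 6.70, 6.41 and 6.50 against 7.52, 7.26 and 7.42. All DA arrays lay below all aorta arrays. Pdk4 was 1.94-fold lower in the DA in F (log2 −0.95 ± 0.15, limma adjusted p = 0.00267), 1.82-fold lower in N (−0.86 ± 0.15, limma adjusted p = 0.00582) and 1.88-fold lower over both (−0.91 ± 0.11, limma adjusted p = 0.000122). All of these calls were kept in each of the 12 fits without 1 array, while array weights ended that in N (0.0532) and the methods' t-test with Benjamini-Hochberg adjusted values ended those in F (0.137) and N (0.117).

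Slc16a1, the monocarboxylate transporter that moves lactate across the membrane, read 7.35, 7.48 and 7.11 in the DA of the F group and 7.04, 6.76 and 6.48 in its aorta. In N it read 7.89, 7.39 and 7.09 against 7.04, 6.81 and 6.52. The lowest DA array was thus just above the highest aorta array. It was 1.53-fold higher in the DA over both stages (log2 0.61 ± 0.15, limma adjusted p = 0.0259, with the block 0.000281). The call ended, with a limma adjusted p of 0.0551 to 0.0704, without aorta F replicate 2 or 3, DA F replicate 1 or 2, aorta N replicate 2 or 3, or DA N replicate 2. Within each stage it was called with the block alone (limma adjusted p = 0.0102 in F and 0.00376 in N, against 0.258 and 0.167 without it). Slc16a3, the lactate exporter of glycolytic cells, differed by 0.17 ± 0.09 and was not called.

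Ldha, the lactate dehydrogenase subunit that favours lactate, differed by 0.27 ± 0.26 (limma adjusted p = 0.712), and with the block by the same amount ± 0.08 (0.0397). A dimmer probe set of Ldha differed by 0.42 ± 0.17 (limma adjusted p = 0.217) and was not called. On the brighter one, used here, the arrays differed more by replicate number than by vessel. The mean of the 4 arrays was 11.88 for replicate 1, 11.16 for replicate 2 and 10.88 for replicate 3, a range of 1.003 on the log2 scale. In an F test of the replicate number in the block fit, added after the data were seen, 18 of the 38 genes differed between numbers, or 47.4%, against 42.9% of all probe sets, so the share among the 38 was near the background. Pgk1 came next with a range of 0.70 and Aldoc with 0.59. The lys spike read 4.53 to 6.17 on the arrays of replicate 1, 4.16 to 4.78 on those of replicate 2 and 3.41 to 3.53 on those of replicate 3, and its part in these ranges was not tested. Ldhb (0.08 ± 0.11), the subunit that favours pyruvate, was not called in either fit. Pdk1, the hypoxia-induced counterpart of Pdk4, was called with the block alone (0.20 ± 0.12 without it, limma adjusted p = 0.425, and 0.0448 with it).

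**Figure D3:**
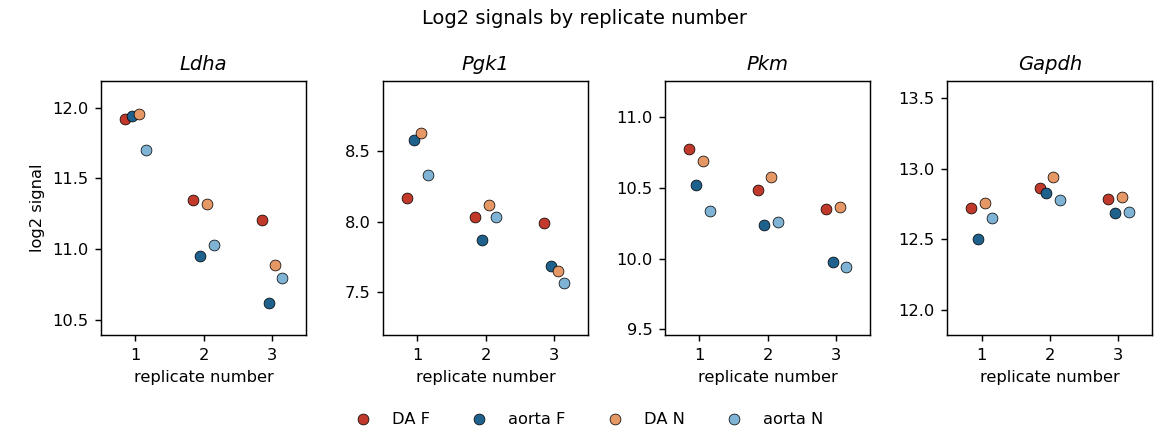
Log2 signal (y axis, all panels spanning the same number of log2 units) against replicate number (x axis) for Ldha, Pgk1, Pkm and Gapdh in the 4 groups, 1 point an array. Ldha, Pgk1 and Pkm are highest on the array numbered 1 and lowest on that numbered 3 in every group, and for Pkm the DA array lies above the aorta array of its number and stage, while Gapdh is highest in replicate 2.

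No gene of oxygen sensing was called between the vessels in F, in N or on average, with or without the block. Of all probe sets 3.77% in F, 3.14% in N and 8.12% on average were called without the block. None of 6 is near those shares. Hif1a and Epas1, the oxygen-regulated subunits, differed by −0.16 (95% confidence interval −0.36 to 0.03) and −0.04 (−0.22 to 0.13) over both stages, and their partner Arnt by −0.11 (−0.29 to 0.07). Hif1a was lower in the DA in 6 of 6 same-numbered pairs, although its groups overlapped, at 8.91 to 9.12 in the DA and 9.02 to 9.42 in the aorta. Egln1 and Egln3, the prolyl hydroxylases, differed by 0.02 (−0.15 to 0.19) and −0.11 (−0.37 to 0.15). A dimmer probe set of Egln1 gave −0.33, so its probe sets disagreed in sign. Vhl, which marks the hydroxylated factors for destruction, differed by 0.17 (−0.12 to 0.47). These are RNA levels, and the factors are controlled mostly at the protein.

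Of the 7 hypoxia targets, Car9 alone was called. This carbonic anhydrase of the cell surface helps to rid cells of acid. It read 6.44, 6.46 and 7.07 in the DA against 6.02, 6.21 and 6.005 in the aorta in F, and 6.16, 7.11 and 6.52 against 6.11, 5.98 and 6.09 in N. Within each stage the DA lay above the aorta, but over both the lowest DA array fell below the highest aorta array, and the DA arrays were spread more widely (SD 0.38 against 0.09, n = 6). Car9 was 1.47-fold higher (log2 0.56 ± 0.16, limma adjusted p = 0.0491, with the block 0.0172). That call too ended without any 1 of the 11 arrays other than DA N replicate 1 (limma adjusted p of up to 0.114), after quantile normalization (0.0524), after subtraction of the array medians (0.0513), without the filter on low values (0.0672) and in the methods' t-test with Benjamini-Hochberg adjusted values (0.0559).

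The other targets were split. Adm, the vasodilator adrenomedullin, differed by −0.33 ± 0.11 and was called lower with the block alone (limma adjusted p = 0.123, with the block 0.0167). Bnip3 and Bnip3l, which remove mitochondria, differed in opposite directions, by 0.26 ± 0.12 and −0.20 ± 0.08, and neither was called (limma adjusted p = 0.277 and 0.184). Ndrg1, a stress-response gene, differed by −0.21 ± 0.11, Ankrd37 by 0.07 ± 0.17 and the mitochondrial protein gene Higd1a by 0.06 ± 0.13. Bnip3l was nevertheless lower on all DA arrays than on all aorta arrays within each stage. In the F group 7 of the 38 genes lay higher and 3 lower in the DA without overlap (7.73% and 10.9% of all probe sets), and in the N group 6 and 4 (6.98% and 8.3%).

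Other genes of the same processes were read from 2 longer lists, which were chosen with earlier results of these data known. Of 41 further genes of glycolysis and pyruvate use, 35 were tested. None was called higher over both stages (3.19% of all probe sets) and 1 was called lower (4.93%). This was Slc16a7, a monocarboxylate transporter of high affinity (log2 −1.08 ± 0.16, limma adjusted p = 0.000898). The mean signal of Slc16a7 over all arrays, 5.07, was close to the lower limit of testing (4.44). The median difference of the 35 was −0.04. Of 57 further hypoxia response genes, 50 were tested, with 7 higher and 4 lower in the DA, against the same 3.19% and 4.93% of all probe sets. The largest among these were P4ha1, a subunit of the collagen prolyl hydroxylase (log2 1.53 ± 0.12, limma adjusted p = 4.14e-06), and Vegfa, the angiogenic growth factor (1.26 ± 0.10, limma adjusted p = 5.41e-06). Those lower were Igfbp3 (−0.74), P4ha2 (−0.62), Hif3a (−0.60) and the Vegfa receptor Flt1 (−0.55). P4ha2 encodes the counterpart of the P4ha1 subunit in another form of the collagen prolyl hydroxylase. The call for Hif3a, a further hypoxia-inducible factor subunit, had a limma adjusted p of 0.0263, and was lost without aorta F replicate 2 or 3, DA F replicate 1 or 2, aorta N replicate 2 or 3, or DA N replicate 1 (0.0502 to 0.0762). The median of the 50 was −0.05.

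Between F and N none of the 38 genes was called, in the DA or in the aorta. The N group was sampled 30 minutes after delivery, once breathing had begun. The summed signal of the erythroid markers was 8.81 to 10.23 in F and 8.10 to 8.34 in N in the DA, and 8.85 to 9.32 and 8.81 to 9.07 in the aorta, with 0 of 5 called by limma in either vessel (at an unadjusted p under 0.05, 3 were lower for the DA and 0 for the aorta), and its part in these comparisons was not tested. In limma 0 of 38 genes passed in either vessel, against 0.00535% of all probe sets for the DA and 0.0% for the aorta. None of the 38 had an unadjusted p under 0.05 there. With the replicate block it was also 0 in both, against 0.0535% and 0.0161% of all probe sets, and the methods' t-test put 1 gene in each vessel under an unadjusted p of 0.05, Egln1 in the DA and Eno2 in the aorta, against 2.27% and 2.04% of all probe sets, and none after adjustment. Array weights, whose estimation stopped before it converged, called 4 genes higher in the N group in the aorta, Ankrd37, Pfkfb3, Eno2 and Bnip3, and none lower. That fit called 4.78% of all probe sets higher and 8.25% lower there.

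The differences of N against F ran from −0.11 to 0.31 in the DA, with a median of 0.04, and from −0.12 to 0.37 in the aorta, with a median of 0.01. Over all probe sets the medians were 0.02 and 0.00. In the DA the highest values were those of Ndrg1 (0.31, 95% confidence interval −0.03 to 0.65) and Pdk4 (0.28, −0.05 to 0.60). In the aorta they were those of Ankrd37 (0.37, −0.15 to 0.88) and Eno2 (0.34, −0.02 to 0.70). Eno2 read 4.86, 5.05 and 5.07 in the F group and 5.24, 5.29 and 5.46 in the N group of the aorta, without overlap, and Egln1 did the same in the DA, at 7.57 to 7.63 in F and 7.71 to 7.83 in N. These were the only genes of the 38 without overlap in their vessel, 1 higher in the N group in each, against 2.99% and 2.93% of all probe sets. None was lower in the N group without overlap, against 2.04% and 1.46%.

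None of the genes called between vessels was called between stages. Aldoc differed between N and F by 0.12 (95% confidence interval −0.38 to 0.62) in the DA and −0.05 (−0.56 to 0.45) in the aorta, and Slc2a1 by −0.08 (−0.34 to 0.18) and −0.01 (−0.27 to 0.24). Hif1a differed by 0.00 (−0.27 to 0.27) and 0.08 (−0.19 to 0.36). The widest intervals belonged to Ldha, −0.11 (−0.89 to 0.68) in the DA, so a change within that range cannot be told from none. The test of whether the stages differed in their vessel difference called 0 of 38 genes and 0.0% of all probe sets in limma, 174 of which had an unadjusted p under 0.05, none of them among the 38. Those values ran from −0.29 to 0.29.

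**Figure D4:**
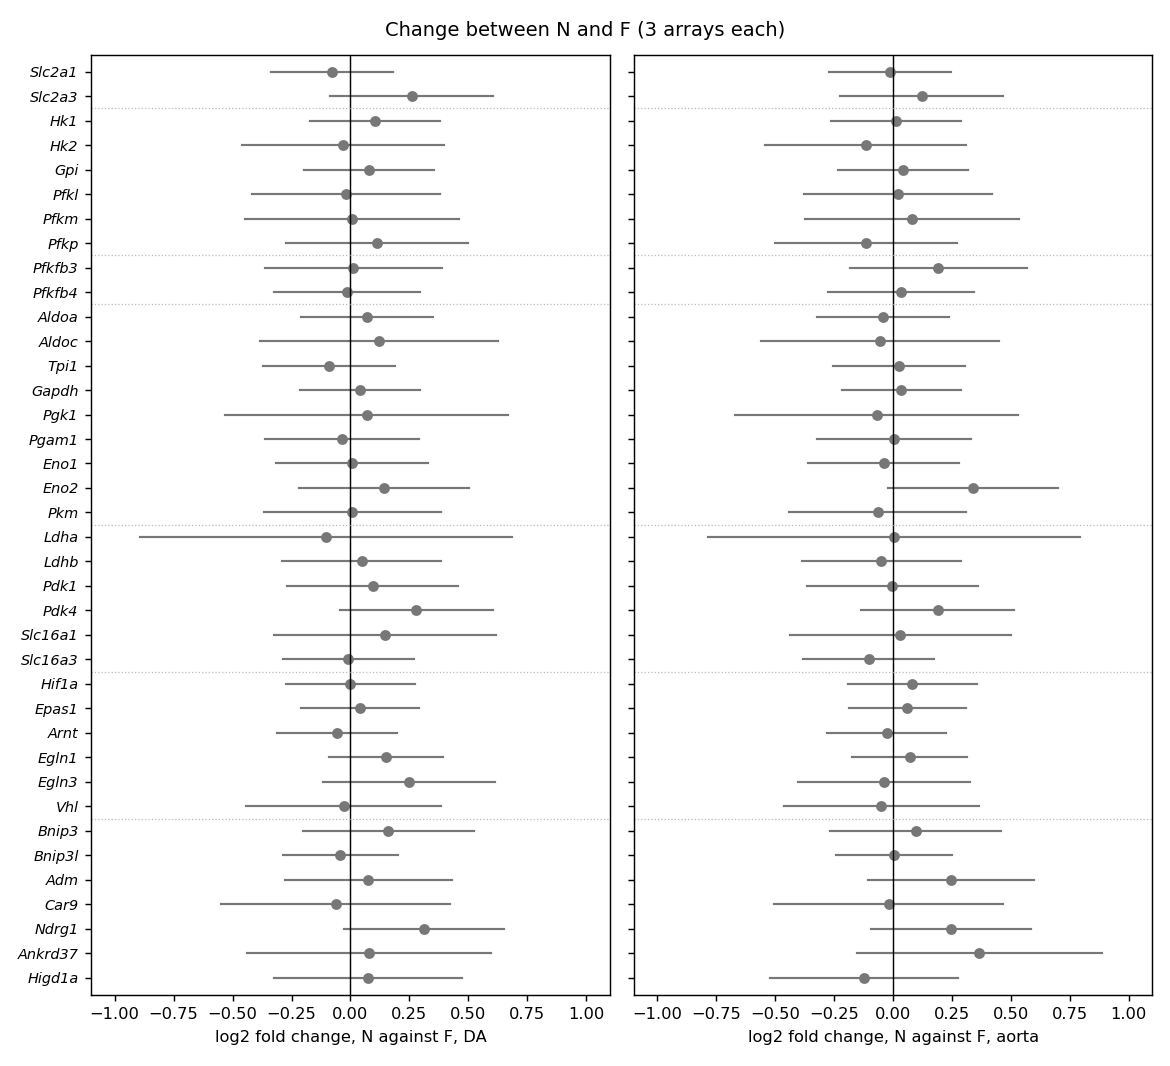
Log2 fold change of the 38 genes in N against F (x axes) in ECs of the DA (left) and of the aorta (right), with points for the estimate and lines for its 95% confidence interval from limma, 3 arrays a group. No gene was called in either vessel, and every interval includes 0.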

How the data were processed

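RNA of sorted ECs was labelled by the authors and hybridized to 12 Rat Gene 1.0 ST arrays, 3 in each of 4 groups. The table they deposited holds 26468 probe sets as log2 signals; how these were summarised and normalized by the authors was not given in the sources used here. Array medians were 5.63 to 5.76, and no further normalization was applied. The precision is limited by the number of arrays. The litter numbers in the authors' methods add up to separate litters for each stage and replicate, with the DA and the aorta of a set from the same litters, but this is not stated outright. The p-values measure the spread between these pools. In the fit without the block that spread includes a part shared by same-numbered arrays, across F and N as well as across vessels.

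Probe sets were named from the platform annotation: 15307 had 1 gene symbol, 323 several and 10838 none. The 18690 probe sets with a mean at or above that of the lys spike (4.44) were tested, and 7778 were left out. Group means over all 12 arrays were fitted with limma 3.58.1 (R 4.3.3) and moderated variances, with Benjamini-Hochberg adjustment over the tested probe sets and a threshold of 0.05. The contrasts were DA against aorta in F, in N and averaged over both, N against F in each vessel, and the interaction. Every one of the 38 genes is named, and those called get their value on each array; of each longer list at most the 6 called genes with the largest vessel difference over both stages are named. The 38 genes and the other lists were chosen with earlier results of these data known. On simulated data, 63 of 66 probe sets changed by 2 log2 units were called for DA against aorta in F. Of those changed by 1 it was 50 of 67, and of those changed by 0.5 it was 17 of 67. Among unchanged probe sets 7 were called. The simulated noise was independent between arrays, without the part shared by same-numbered arrays, and few probe sets were changed. The rates need not hold in these data or in the fit with the block.

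The replicate numbers of the labels paired the samples clearly for numbers 1 and 3. Deviations from the group means of same-numbered arrays correlated at 0.54 to 0.82 for number 1 and 0.39 to 0.74 for number 3. For number 2 it was 0.10 to 0.30, and for different numbers −0.74 to 0.37. Some pairs of different numbers thus correlated more than those of number 2. The sources used here do not say what a number stands for. Promoters were taken from a RefSeq table of GRCr8. Tables and figures were made with pandas 2.3.3 and matplotlib 3.10.9 in Python 3.11.15.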

Additional observations from a re-analysis of the deposited data

How the results depend on the processing

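The 10 calls of single genes were recomputed under the alternatives: 185 of 230 values kept their direction and their side of the threshold, 45 kept their direction and lost the call, and 0 reversed. Averaging a gene's probe sets could not test these calls, as each called gene has 1 probe set. Without correction for the number of probe sets, the t-test set an easier threshold than the main fit. Values of both kinds are counted among the 230. The counts of called genes moved more. With the replicate block they were 4 higher and 2 lower in F, 3 higher in N and 10 higher over both stages. Array weights, whose estimation stopped before it converged, gave 4 higher (4.62% of all probe sets) and 3 lower (8.58%) in F, 0 lower in N (1.69%), 5 lower over both (7.01%) and 4 higher for N against F in the aorta (4.78%). Subtraction of the array medians and no filter on low values each left 2 higher over both. The methods' t-test gave, with Benjamini-Hochberg adjusted values, 0 higher and 0 lower in F and in N. At an unadjusted p it gave 4 higher and 2 lower in F (4.63% and 7.28% of all probe sets), 2 and 4 in N (4.38% and 5.53%), 10 and 6 over both (9.13% and 11.6%), and 1 higher for N against F in each vessel (1.37% in the DA, 1.4% in the aorta). Without 1 array in turn, 0 to 1 were higher and 1 to 2 lower in F, and 1 to 5 were higher over both. Counts given without a share of all probe sets do not tell a change in these genes from a change in the call rate of all probe sets. With the replicate block, no gene called without it lost its call in the same comparison. Of the 38 genes, the stricter filter left out Eno2 and Higd1a, those nearest the lower limit. At 3 arrays a group, differences of 0.5 log2 units were mostly missed in the simulation, which limits what the absence of a call says. Its noise was independent between arrays, so its rates need not hold in these data.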
